A study of Homo sapiens with 14 samples.

Results

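The promoters of the genes for respiratory complex I were examined in a ChIP-seq experiment with an antibody against ZNF143 in human cells. Members were all protein-coding genes of GENCODE with a symbol starting with NDUF, of which there were 48 among 19970 protein-coding genes on the chromosomes of the peak lists. A peak was assigned to a gene when its centre was located from 2 kb upstream to 1 kb downstream of any annotated transcription start site (TSS) of the gene. 40 members carry a subunit symbol (NDUFA, NDUFB, NDUFC, NDUFS or NDUFV) and 8 are assembly factors (NDUFAF). This gave 49 peaks of the untreated list, out of 20429 in all and 7702 at protein-coding promoters, and 50 peaks of the dTAG-V1 list, out of 35287 and 10296.

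ZNF143 is a zinc finger transcription factor that binds promoters of housekeeping genes through a long motif called SBS. The cells were HEK293T, an established human embryonic kidney line, in which ZNF143 carries the FKBP12F36V tag, and all samples came from a single clone, HEK_CloneZD29, so that the untreated samples carry the tag as well. The Proteintech antibody against ZNF143 was used on 4 samples without treatment and on 4 samples given dTAG-V1, a compound that directs the tagged protein to degradation, at 0.5 µM over 30 min. Besides its target, this antibody also recognises CTCF according to the study, so that a peak of either list can stem from ZNF143 or from CTCF, which cannot be told apart here. The peaks are therefore called Proteintech peaks. Peak names in the list without treatment mention DMSO, and the labels, which do not, were followed. The 6 CTCF samples among the 14 of the series were not analysed here. For peak selection, the methods ask for detection in all 4 replicates without treatment but in any of the 4 with dTAG-V1, and whether the deposited lists were selected in this way is not given in the sources used here. Such a rule alone would make the dTAG-V1 list longer. Each condition is represented by 1 list, in which the replicates are not kept apart. There is therefore no value per sample, no spread between replicates and no test, and the sequencing depth behind the lists is unknown. Shares are given with 95% Wilson intervals, which cover counting error only, and genes that share a peak are not independent.

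Complex I is the entry point of electrons from NADH into the respiratory chain of mitochondria. It transfers them through a flavin and a chain of iron-sulfur clusters to ubiquinone and pumps protons across the inner membrane. A set of core subunits carries out catalysis, partly encoded by the nuclear genome and partly by the mitochondrial genome, and accessory subunits surround them. Assembly factors are needed to build the complex but are not part of it. The genes analysed here are nuclear.

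SBS sites were located with 2 matrices learned from the peaks, SBS2, which begins with the letters ACTACA or a close relative, and SBS1, which covers the part around CCCA and what follows it. In the last part of both matrices as learned, the favoured letters are mostly C. An SBS site or SBS motif here means a match to these learned matrices. Whether they equal published SBS matrices was not tested. Sequence of 1 chromosome, which holds NDUFAF6 and NDUFB9, is not shown here. Among the other members, the best sites of the 10 with the highest motif scores are printed first because they show which letters lie below the peaks described afterwards. Each is given 5′ to 3′ in hg38 on the strand stated, with the bases matched by the matrix in capitals.
NDUFV1 (chr11:67606774-67606802, plus strand, SBS2): tgggACCACATCTCCCAGAAGCCCCggcg
NDUFB2 (chr7:140696944-140696972, minus strand, SBS2): gcggACTACAGGTCCCAGCATGCCTcggg
NDUFA3 (chr19:54102722-54102750, plus strand, SBS2): agggACCACAACTCCCAGAGTGCTCcgcg
NDUFA7 (chr19:8321400-8321424, minus strand, SBS1): gtctTTCCCAGCAGCCCCAGCggtg
NDUFA1 (chrX:119871823-119871847, minus strand, SBS1): tctcTTCCCAGCAAGCCCCGCggcc
NDUFV3 (chr21:42893024-42893048, plus strand, SBS1): ggggTGCCCAGCAGCCCCCGCaggt
NDUFV2 (chr18:9102561-9102585, plus strand, SBS1): caggGCCCCAGCAGCCCCCGCgcgc
NDUFB10 (chr16:1959471-1959499, plus strand, SBS2): gggaACTACAAGTCCCATGGTGCATcgcg
NDUFA9 (chr12:4649103-4649127, minus strand, SBS1): tcttTTCCCACAATCCCCCACgaca
NDUFA10 (chr2:240025638-240025662, plus strand, SBS1): tctcGTCCCAGGGTCCTGTGCtccc

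The probability that a random position matches as well, given the base composition of the whole genome, was lowest at NDUFV1, with 1.9e-10. At NDUFB2 it was 3e-10, and both were SBS2 sites. The 10 printed stretches held from 52.0% (NDUFA9) to 88.0% (NDUFV2) G and C. How often sequence of such composition matches by chance was not tested, so the probabilities do not hold for it. NDUFA10 closed this group with a match probability of 6e-07. Rank by motif score did not equal rank by peak score, as NDUFV3 had a high motif score below a weak peak, at percentile 10.2 of the untreated list. For NDUFA3 the untreated peak held a second SBS2 site 96 bp downstream of the first, start to start, shown here, by a choice made after the values had been seen, because both are nearly the same word.
NDUFA3, second site (chr19:54102822-54102842 in capitals, plus strand, SBS2): agggACCACAACTCCCAGGGTGCTCcgcg
Counted from 1 at the 5′ end of the capitals, both sites had 20 of 21 bases in common and differed by A15G. 2 or more SBS sites that did not overlap were found in 7 of the 49 untreated peaks, which is 14.3% (7.1 to 26.7%), against 16.8% of all untreated promoter peaks. The 7 peaks belong to NDUFA3, NDUFA9, NDUFB10, NDUFB8 and NDUFB9 with 2 sites each and to NDUFB2 and NDUFV2 with 3 sites each.

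Most complex I promoters had a Proteintech peak. An untreated peak was found at 43 of the 48 genes, 89.6% (77.8 to 95.5%), compared with 40.5% of all protein-coding genes. With dTAG-V1 the number was 46 of 48, 95.8% (86.0 to 98.8%), compared with 48.2%. Peaks in both lists were found at 43 of 48 members, 89.6% (77.8 to 95.5%), against 37.2% of all protein-coding genes. Thus all 43 members with an untreated peak also had a dTAG-V1 peak. Among all protein-coding genes, this held for 7425 of the 8097 with an untreated peak. No member was called in the untreated list only (background 3.37%), and 3 members, NDUFS8, NDUFAF3 and NDUFAF7, were called in the dTAG-V1 list only (background 11.1%). These counts rest on lists of 20429 and 35287 peaks that may have been selected by unequal rules. The background of all protein-coding genes, here and below, was not matched for expression or promoter activity, for which no values were at hand. Whether the gap to this background goes beyond active promoters in general was not tested. NDUFA4L2 and NDUFA8 had no peak in either list.

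By role, an untreated peak was found at 6 of 7 core subunit genes, at 31 of 33 genes with other subunit symbols and at 6 of 8 NDUFAF genes. All 11 NDUFB genes, all 3 NDUFC symbols and all 3 NDUFV genes had one. A peak was likewise present at 11 of 11 other complex I assembly factors, such as ACAD9, ECSIT and TIMMDC1. Among genes for subunits of complexes II to V, 35 of 41 had an untreated peak, 85.4% (71.6 to 93.1%), so that the interval of the complex I genes and that of the other complexes overlapped. The share of genes by role is plotted for both lists.

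**Figure D1:**
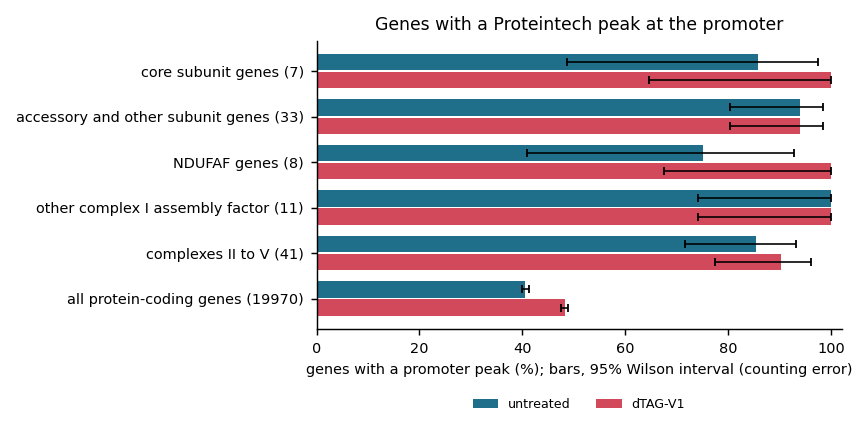
Percent of genes with a Proteintech peak at the promoter in the untreated and the dTAG-V1 list, for groups of genes with the number of genes in brackets; error bars are 95% Wilson intervals. Each respiratory chain group has 75.0% or more, against 40.5% and 48.2% of all 19970 protein-coding genes.

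Peaks were ranked by the MACS2 score within their own list, since scores of different lists are not on one scale. The median percentile of the 49 untreated peaks was 72.1 (100 is the highest), against 62.2 for all untreated promoter peaks, and the values ranged from 2.54 to 97.9. For the 50 dTAG-V1 peaks the median was 74.2, against 52.8. 12 members had an untreated peak in the highest decile of the list, 25.0% of 48 (14.9 to 38.8%), compared with 10.1% of all protein-coding genes. At the level of peaks this was 12 of 49, 24.5%, against 20.6% of all untreated promoter peaks. With dTAG-V1, 17 of 50 peaks, 34.0%, were in the highest decile, against 20.8%.

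The highest untreated peak was that of NDUFA3, an accessory subunit, at chr19:54102454-54103130 with rank 438, a 30.8-fold enrichment at the summit and −log10 q of 7061. NDUFB2, an accessory subunit of the membrane arm, followed at chr7:140696577-140697180 with rank 448, 31.3-fold and −log10 q of 6949. NDUFA2, a small subunit of the peripheral arm, had its peak at chr5:140647469-140648041 with rank 574, 34.6-fold and −log10 q of 5774. The summits of these peaks were 22, 53 and 42 bp upstream of the nearest TSS, and that of NDUFB2 lay in intron 1 of the canonical transcript. NDUFAF5, an assembly factor that hydroxylates the core subunit NDUFS7, was the only NDUFAF gene in this decile, at chr20:13784579-13785241 with rank 723, 34.4-fold and −log10 q of 4712. NDUFA7 at chr19:8321027-8321643 ranked 814 with 34.0-fold and −log10 q of 4206. NDUFA1, a membrane arm subunit encoded on the X chromosome, ranked 917 at chrX:119871460-119872368 with 26.2-fold and −log10 q of 3771, and its summit was 2 bp into exon 1.

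NDUFA9, which lies where the peripheral arm joins the membrane arm, ranked 939 at chr12:4648748-4649521 with 32.2-fold and −log10 q of 3658. NDUFV1, the core subunit that binds NADH and the flavin, ranked 1093 at chr11:67606412-67607018 with 30.6-fold and −log10 q of 2953, and was the only core subunit of the decile. NDUFB10 at chr16:1959180-1959867 ranked 1567 with 20.8-fold and −log10 q of 1394. These 3 peaks had their summits 4, 104 and 44 bp upstream of the nearest TSS. NDUFAB1, the mitochondrial acyl carrier protein, ranked 1610 at chr16:23596025-23596508 with 24.9-fold and −log10 q of 1321, and its summit lay in exon 1. NDUFB9, a protein of the LYR motif family, ranked 1638 with 23.03-fold and −log10 q of 1261, and NDUFC1, a small membrane subunit, ranked 1753 at chr4:139301180-139301868 with 20.02-fold and −log10 q of 1065. No NDUFS gene was in the decile.

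All 12 of these peaks contained an SBS motif and overlapped a dTAG-V1 peak that was itself in the highest decile. Among all highest-decile untreated promoter peaks, 93.3% of 1587 had an SBS motif and 99.6% overlapped a dTAG-V1 peak of any rank. The motif and the overlap as such were thus shared with the decile as a whole. How many of the overlapped dTAG-V1 peaks were in their own highest decile is not given here. The distance from the summit to the middle of the best site was between 1 bp at NDUFA1 and 63 bp at NDUFA3 in 11 of the 12 peaks and was 179 bp at NDUFB9. With dTAG-V1 the order changed at the top, with NDUFA3 at rank 162, NDUFV1 at 673, NDUFA7 at 844, NDUFA1 at 976 and NDUFB2 at 1017. The ranks of the others were 1081 for NDUFA2, 1148 for NDUFAF5, 1298 for NDUFA9, 1322 for NDUFB10, 1601 for NDUFC1, 1616 for NDUFAB1 and 2138 for NDUFB9. Thus the same 12 genes were among the most highly scored of each list.

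**Figure D2:**
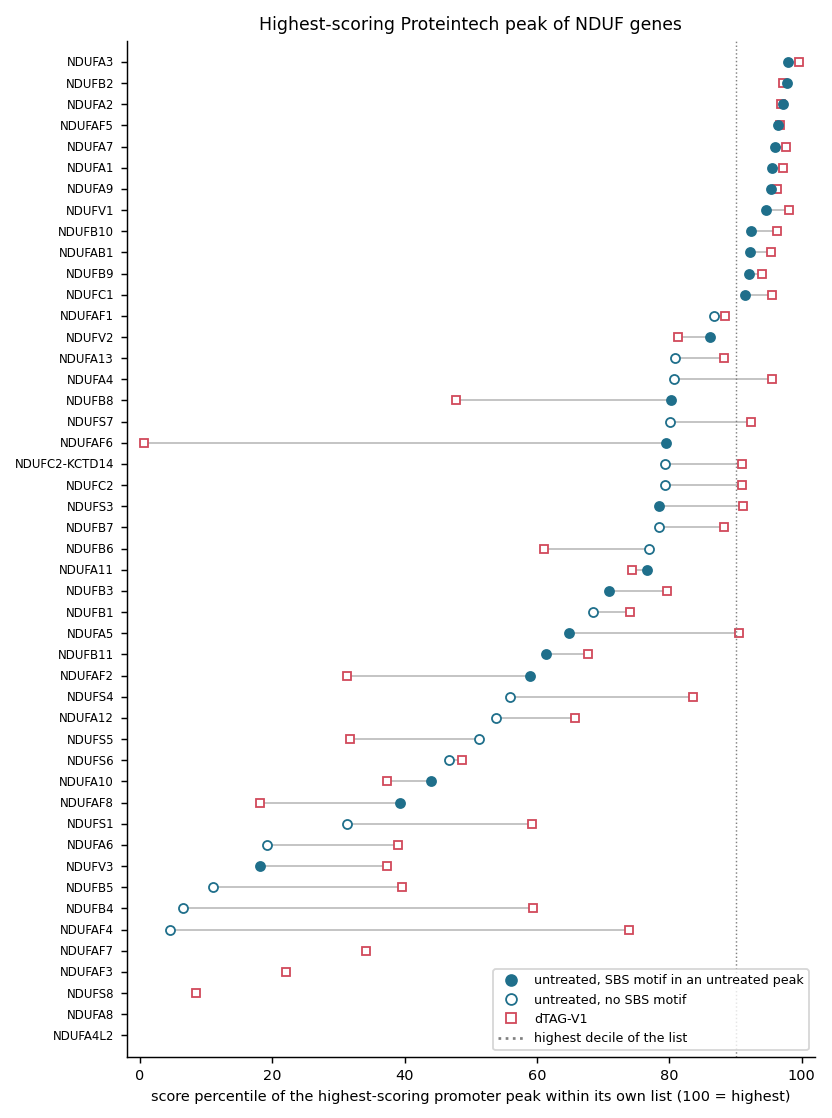
Score percentile within its own list (100 is the highest) of the highest-scoring promoter peak of 47 of the 48 NDUF genes, for the untreated list (circles, filled where an untreated peak has an SBS motif) and the dTAG-V1 list (squares); the dotted line marks the highest decile. The 12 untreated peaks right of the line are all filled, and the percentiles of the other genes spread from 4.47 to 86.8.

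Further members were in the highest decile of the dTAG-V1 list but not of the untreated list. As the lists differ in length, this decile held 3529 peaks with dTAG-V1 and 2042 without, and all but NDUFA4 of the following ranks are beyond 2042. NDUFA4, which carries a complex I symbol but is now known as a subunit of complex IV, ranked 1575 at chr7:10939913-10940481 with 14.1-fold and −log10 q of 284.8, and had no SBS motif. NDUFS7, the core subunit that holds the last iron-sulfur cluster before ubiquinone, ranked 2683 at chr19:1382941-1383957 with 7.69-fold and −log10 q of 71.0, also without an SBS motif. NDUFS3, a core subunit of the peripheral arm, ranked 3102 at chr11:47578620-47579626 with 6.97-fold and −log10 q of 56.2. NDUFC2 ranked 3185 at chr11:78079553-78080227 with 6.55-fold and −log10 q of 54.2, and the readthrough gene NDUFC2-KCTD14 shares this peak. NDUFA5 ranked 3323 at chr7:123557602-123558371 with 5.93-fold and −log10 q of 51.6. In the untreated list the ranks of their best peaks were 3937 for NDUFA4, 4059 for NDUFS7, 4406 for NDUFS3, 4231 for NDUFC2 and 7167 for NDUFA5. All of these genes thus had an untreated peak as well, below its highest decile.

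The core subunit genes were spread over the lists. The highest untreated peaks of 5 of them had percentiles of 94.7 for NDUFV1, 86.1 for NDUFV2, which carries an iron-sulfur cluster next to the flavin, 80.1 for NDUFS7, 78.4 for NDUFS3 and 31.2 for NDUFS1. In the dTAG-V1 list the same genes had percentiles of 98.1, 81.4, 92.4, 91.2 and 59.2. NDUFS8, a core subunit with iron-sulfur clusters, had no untreated peak, and the nearest one was centred 65612 bp from its TSSs. Its dTAG-V1 peak at chr11:68030001-68030486 ranked 32084 of 35287 with 2.44-fold and −log10 q of 3.88, and the summit was 444 bp upstream of the nearest TSS. Its percentile of 8.48 was the lowest of the core genes in the dTAG-V1 list.

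Below the highest decile, the accessory subunit genes reached untreated percentiles from 6.46 at NDUFB4 to 80.8 at NDUFA13. NDUFB4, NDUFB5, NDUFV3 and NDUFA6 were at the lower end, with percentiles of 6.46, 11.0, 18.1 and 19.2. Between them, NDUFB8 was at 80.2, NDUFB7 at 78.4, NDUFB6 at 76.95, NDUFA11 at 76.55, NDUFB3 at 70.9, NDUFB1 at 68.4 and NDUFB11 at 61.3. NDUFS4, which stabilises the NADH-binding end of the complex, was at 55.9, NDUFA12 at 53.9, NDUFS5 at 51.3, NDUFS6 at 46.7 and NDUFA10 at 43.98. The accessory genes thus covered nearly the whole range of the list. NDUFB5 shares its promoter with MRPL47, which encodes a protein of the mitochondrial ribosome. Of the accessory genes without a peak, NDUFA8 was far from any, with the nearest untreated peak centred at 42243 bp and the nearest dTAG-V1 peak at 34372 bp from its TSSs. NDUFA4L2, the hypoxia-inducible relative of NDUFA4, had an untreated peak at 3015 bp and a dTAG-V1 peak at 1215 bp, and the latter was just outside the window. NDUFA8 thus lacked a nearby peak, while the dTAG-V1 peak at NDUFA4L2 was beyond the downstream limit of the window.

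Among the assembly factors, NDUFAF5 was at percentile 96.5 of the untreated list and NDUFAF1 at 86.8, whereas NDUFAF2 was at 58.9 and NDUFAF8, a partner of NDUFAF5, at 39.4. For NDUFAF6 and NDUFAF4 the peaks of both lists were at different positions. NDUFAF6 has distant alternative TSSs, and its 3 untreated peaks, at chr8:94896335-94897178, chr8:95024303-95024866 and chr8:95025653-95026084, ranked 4186, 19352 and 14249. Each of them contained an SBS motif, the best with a match probability of 5.3e-08, and none overlapped a dTAG-V1 peak. The only dTAG-V1 peak of NDUFAF6, at chr8:95100293-95100511, ranked 35027 with 2.17-fold and −log10 q of 2.42 and contained neither motif. NDUFAF4, which acts together with NDUFAF3 in the assembly of the peripheral arm, had a weak untreated peak in intron 1 at chr6:96896896-96897373 with rank 19413 and 2.18-fold. Hence a peak in both lists did not mean the same peak at these genes.

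The members called with dTAG-V1 only had low ranks. NDUFAF7, a methyltransferase of the mitochondrial matrix, had its peak at chr2:37231071-37231602 with rank 23184, 2.99-fold and −log10 q of 7.84, in a promoter shared with CEBPZ. NDUFAF3 had its peak at chr3:49018691-49019029 with rank 27434, 2.31-fold and −log10 q of 5.62. Its summit was 1714 bp upstream of the nearest TSS and within the window of DALRD3 as well. The nearest untreated peaks were centred 48248 bp from NDUFAF7 and 7247 bp from NDUFAF3. At a −log10 q of at least 5 in both lists, 5 members instead of 3 were found with dTAG-V1 only and 1 instead of 0 in the untreated list only.

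Of the 49 untreated peaks, 43 overlapped a dTAG-V1 peak by at least 1 bp, 87.8% (75.8 to 94.3%), against 84.2% of all untreated promoter peaks. This was the case for 23 of 26 peaks with an SBS motif, 88.5%, and for 20 of 23 without, 87.0%, close to the 83.9% and 84.4% of all untreated promoter peaks. With a reciprocal overlap of 50%, the share was 67.35%. The 6 peaks that were not found again were the 3 of NDUFAF6, that of NDUFAF4 and 1 each at NDUFV3 and NDUFS4. 41 of the 48 genes, 85.4% (72.8 to 92.8%), had an untreated peak that overlapped a dTAG-V1 peak, against 35.9% of all protein-coding genes.

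Because the dTAG-V1 list is longer, the 43 peaks were also ranked among the 6484 promoter peaks found in both lists alone, a view added after the values had been seen. Peaks with an SBS motif were at a median percentile of 78.1 in the untreated and 75.2 in the dTAG-V1 list, and the median of the differences was −0.82. Peaks without one were at 40.2 and 43.6, and the median of the differences, dTAG-V1 minus untreated, was 3.18. The same medians of the differences over all promoters were −0.88 with and 4.17 without the motif. Individual members differed more, in both directions with and without the motif. With dTAG-V1, 9 peaks with the motif were higher and 14 lower, and 12 without it were higher and 8 lower. The shares that were higher, 39.1% with and 60.0% without the motif, were close to 42.4% and 60.8% of all promoter peaks found in both lists. Among those with the motif, NDUFB8, a membrane arm subunit, was at percentile 63.0 of the untreated and 27.4 of the dTAG-V1 list. NDUFAF2 was at 42.7 and 14.3, and NDUFA5 rose from 48.1 to 68.1. Among those without it, a peak of NDUFS3 fell from 40.0 to 9.13. NDUFB4 was at 3.25 and 37.4 and NDUFA4 at 63.7 and 80.0. These are ranks, and a loss of signal shared by all peaks cannot be seen in them.

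**Figure D3:**
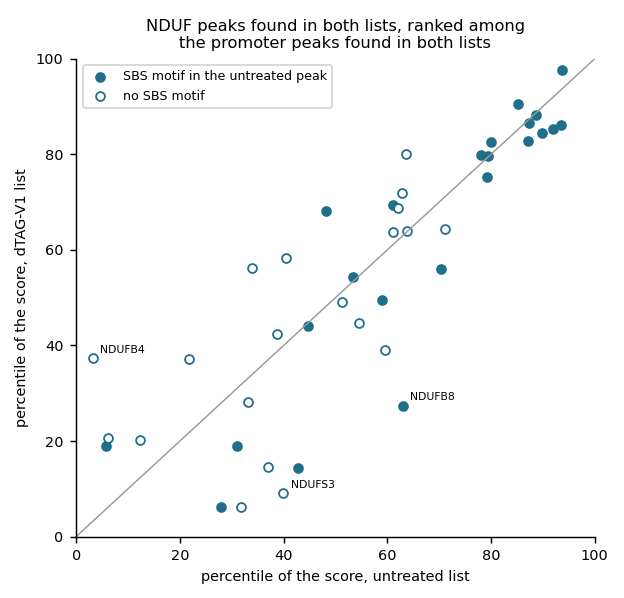
Percentile of the score among the 6484 promoter peaks found in both lists, in the untreated list (x axis) and in the dTAG-V1 list (y axis), for the 43 NDUF peaks; filled points have an SBS motif and the line marks equal percentiles. The 12 points at the upper right, above percentile 75 of the untreated list, are all filled and differ by −7.48 to 5.20 percentiles between the lists, whereas NDUFB8, 1 peak of NDUFS3 and NDUFB4 are more than 30 percentiles from it.

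An SBS motif, at a match probability of at most 1e-05, was found in 26 of 49 untreated peaks, 53.1% (39.4 to 66.3%), against 47.4% of all untreated promoter peaks. In the dTAG-V1 list it was found in 18 of 50 peaks, 36.0% (24.1 to 49.9%), against 33.1%. The background was thus within the interval in both lists. By gene, 24 of 48 members had an untreated peak with an SBS motif, 50.0% (36.4 to 63.6%), against 21.2% of all protein-coding genes. The best site was an SBS2 site in 5 of the 26 untreated peaks, 19.2% (8.5 to 37.9%), against 43.9% of the untreated promoter peaks with an SBS motif. It was within 50 bp of the summit in 17 of 26, 65.4%, close to 64.1% of all. The best site was on the strand of the gene in 15 of 26 peaks and on the opposite strand in the others. At a looser threshold of 5e-05, the share of untreated peaks with an SBS motif was 83.7%, against 71.8% of all untreated promoter peaks.

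Few of these peaks had a CTCF motif at the same threshold. It was found in 3 of 49 untreated peaks, 6.12% (2.1 to 16.5%), against 15.5% of all untreated promoter peaks, and in 8 of 50 dTAG-V1 peaks, 16.0% (8.3 to 28.5%), against 20.5%. At 5e-05 it was found in 51.0% of the untreated peaks, against 39.3% of all. The untreated peaks were those of NDUFV1 and NDUFS3 and the second peak of NDUFC1, of which only the last had the site close to the summit, at 10 bp. Both NDUFAF4 peaks of the dTAG-V1 list carried a CTCF motif near the summit, at 28 and 34 bp, and neither overlapped the untreated peak. They ranked 9180 at chr6:96897755-96898170 and 23184 at chr6:96898766-96899310. The CTCF sites of NDUFC1 and NDUFAF4 are printed because they were within 50 bp of a summit, and were chosen after the values had been seen.
NDUFC1 (chr4:139295839-139295860, minus strand): ccggCCGCCAGGTGGCGCtggt
NDUFAF4, near the TSS (chr6:96897927-96897948, minus strand): ccgaGCGCTAGGGGGCGAcggg
NDUFAF4, upstream (chr6:96899237-96899258, plus strand): ttatCCTGAAGGTGGCAGgctg

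None of NDUFS8, NDUFAF3 and NDUFAF7, called with dTAG-V1 only, had a CTCF motif at 1e-05. The NDUFAF3 peak had an SBS2 site with a match probability of 1.4e-06, located 25 bp from the summit, and the peaks of NDUFAF7 and NDUFS8 had an SBS match only at the looser threshold. The NDUFAF3 site and that of NDUFAB1 are shown for comparison with the sites of higher motif score above. They were also chosen after the values had been seen. The NDUFAB1 site had a match probability of 5.5e-06 and was 3 bp from the summit. It holds the word CCCANNATG (N is any base). From 250 bp upstream to 50 bp downstream of the canonical TSS, this word was found at 1 of 48 members, 2.1%. The share of all protein-coding promoters was 4.4%. The NDUFB2 site printed above holds the word as well, outside that window. Neither learned SBS matrix favours this word in full, as both have C in place of its last G, followed by further C. The lower motif score of the NDUFAB1 site thus holds for the learned matrix only. The NDUFAF3 site deviates from the ACTACA start.
NDUFAF3 (chr3:49018706-49018734, plus strand, SBS2): tcgaCCTACCGCCCCCAGCGCCCCTtccg
NDUFAB1 (chr16:23596296-23596320, plus strand, SBS1): cgccAACCCAGGATGCACTGCgccg

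Summits were close to TSSs. The median distance of the summit to the nearest TSS of the gene was 45 bp in the 50 pairs of a member and an untreated peak, against 134 bp in 9300 pairs over all protein-coding genes. In 32 of the 50 pairs, 64.0% (50.1 to 75.9%), it was at most 100 bp, against 43.5%. In the dTAG-V1 list the median was 57 bp in 51 pairs, against 207 bp. All summits of the highest untreated decile were between 104 bp upstream and 4 bp downstream of a TSS, and the peaks farther away were in the lower deciles. When only the canonical TSS of each gene was used, the median for the untreated list was 123 bp. For this setting no value over all protein-coding genes is given here, so that the comparison above holds for the nearest annotated TSS only.

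**Figure D4:**
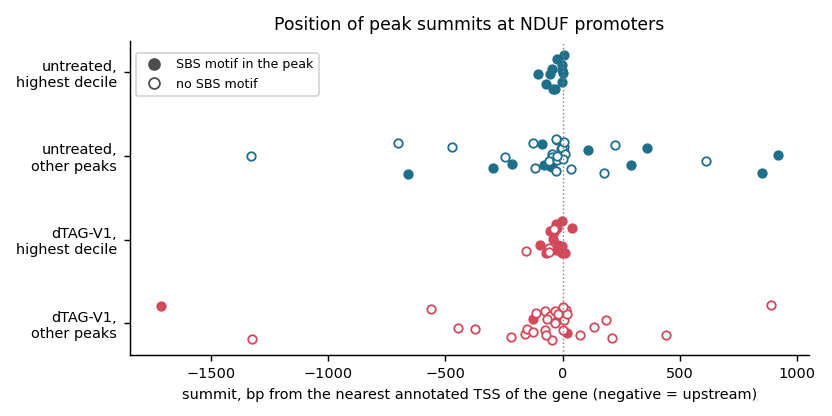
Distance in bp of each peak summit from the nearest annotated TSS of the NDUF gene (negative values are upstream), for the highest score decile and the other peaks of each list; filled points have an SBS motif and the vertical scatter within a row has no meaning. The untreated highest-decile summits lie between 104 bp upstream and 4 bp downstream, whereas other peaks reach 1714 bp upstream.

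Many of these peaks were near another gene as well. 26 of the 49 untreated peaks, 53.1% (39.4 to 66.3%), were also in the window of another protein-coding gene with a gene symbol, against 16.8% of 7702 untreated promoter peaks. Member peaks were picked through a gene, which favours peaks with more genes, whereas the background counts each peak once. The gap between these shares is therefore larger than a like comparison would give. The orientation of the other gene was not considered, and the 26 include the peak of NDUFC2 and its readthrough gene and 2 peaks at a distant alternative TSS of NDUFS3, in the windows of CELF1 and PTPMT1. Among the highest peaks, NDUFA1 shares its peak with RNF113A, NDUFA2 with IK, NDUFA7 with RPS28, NDUFAF5 with ESF1, NDUFB9 with TATDN1 and NDUFC1 with NAA15. Likewise, NDUFA3 shares its peak with OSCAR, NDUFA9 with AKAP3 and NDUFB10 with RPL3L. RPS28 encodes a protein of the cytosolic ribosome and NAA15 a subunit of an N-terminal acetyltransferase. NDUFS6 and MRPL36, as well as NDUFB5 and MRPL47, pair complex I with the mitochondrial ribosome. To which gene of a pair a peak belongs cannot be told apart from its position.

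The promoters were also searched for words of factors that are known to act at genes for mitochondrial proteins. Windows from 250 bp upstream to 50 bp downstream of the canonical TSS were searched on both strands for NRF1 (GCGCATGCG), ETS factors (CCGGAAG) and YY1 (AAGATGGC). The NRF1 word was found at 6 of 48 members, 12.5% (5.9 to 24.7%), against 2.7% of all protein-coding promoters. The YY1 word was found at 10 of 48, 20.8% (11.7 to 34.3%), against 4.06%, and the ETS word at 10 of 48, 20.8%, against 14.1%. At subunit genes of complexes II to V the counts were 5, 7 and 16 of 41. When only genes with an untreated peak were considered, the YY1 word was found at 10 of 43 members, 23.3% (13.2 to 37.7%), against 7.2%, and the NRF1 word at 5 of 43, 11.6% (5.1 to 24.5%), against 3.98%. The ETS word was then found at 10 of 43 members, 23.3%, against 23.2%.

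The NRF1 word was present at NDUFA5, NDUFA8, NDUFAF5, NDUFB4, NDUFS6 and NDUFS7, and members with the YY1 word included NDUFA3, NDUFA6, NDUFA7, NDUFA9, NDUFAF8, NDUFB5, NDUFB8, NDUFS4 and NDUFS7. NDUFA8, which had no Proteintech peak, thus had the NRF1 word, and NDUFS7 had both. At NDUFA9 the YY1 word followed the SBS1 site directly, with 0 bases between them. This stretch was chosen after the values had been seen and is printed because it joins both motifs, on the plus strand, the strand of the gene, with the YY1 word in capitals after the reverse complement of the SBS1 site.
NDUFA9 (chr12:4649107-4649131, plus strand): gtgggggattgtgggaaAAGATGGC
A match is a description of the letters, and binding of NRF1, ETS factors or YY1 was not measured here.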

How the data were processed

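ChIP-seq peaks of the Proteintech antibody were analysed from 2 lists, 1 for untreated and 1 for dTAG-V1 samples. According to the methods and labels, the authors mapped reads to hg38 with bwa, filtered them with SAMtools, removed duplicates with Picard and called narrow peaks with MACS2. No control library is named. The deposited score is 10 times the −log10 q-value, cut to a whole number. The deposited fold enrichment is a ratio over the local background at the summit, and the deposited −log10 q-value is from the same call by the authors. The methods describe a stricter filter on replicates for untreated than for dTAG-V1 samples, and whether the deposited lists passed it is not given in the sources used here. The number of columns with values per sample is 0.

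Genes and TSSs were taken from GENCODE release 44. Matrices for SBS1, SBS2 and CTCF were built from merged peaks of the autosomes with odd numbers, which include member peaks, in 10 iterations from consensus words with at most 2 mismatches, at p 1e-06 and with a pseudocount of 0.8. Hits were taken at p 1e-05 in peaks on all chromosomes. Here p is the chance of the score at a random position with the base composition of the whole genome, not of promoters. The search was tested on simulated sequence, random with the base composition of the whole genome, with and without sites drawn from the same matrices. This does not test matches in promoter sequence or the matrices themselves. Scripts ran under Python 3.11.15 with pysam 0.24.0, pandas 2.3.3, scipy 1.17.1 and numpy 2.4.6. Every NDUF gene enters the counts, and the values of 1 member are not reported here. Full values are given for members in the highest decile of either list, in 1 list only or without a peak, and for NDUFAB1. Sites are printed for the 10 members with the highest motif scores on chromosomes other than 8. The members, lists and rules were chosen with earlier results of these data known. Alternatives were a stricter q-value, other windows and overlaps, other motif thresholds and fixed words.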

Additional observations from a re-analysis of the deposited data

How the results depend on the processing

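The lists hold no value per replicate, no depth and no control, so that peaks near the calling threshold can be missed in either list. No paired analysis was possible because the lists hold no value per replicate. At a −log10 q of at least 5, 1 member was called in the untreated list only and 5 in the dTAG-V1 list only. With canonical TSSs, 1 member was called in the untreated list only and the median distance was 123 bp. The share of untreated peaks found again was 67.35% with 50% overlap of each peak and 95.35% within 500 bp of a TSS. At hit p 5e-05, SBS was found in 83.7% of untreated and 72.0% of dTAG-V1 peaks and CTCF in 51.0% and 52.0%. Within 100 bp of the centre, SBS was found in 32.65% of untreated and CTCF in 6.0% of dTAG-V1 peaks. With fixed words, SBS was found in 20.4% of untreated peaks. The other 45 values computed under an alternative moved by at most 1.5 times for counts, with 2 members instead of 3 in the dTAG-V1 list only within 500 bp of a TSS and with canonical TSSs, or stayed within the interval for shares and medians. The cause of these differences was not tested, except that looser thresholds and narrower regions change the number of matches by construction.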
